A study of Mus musculus with 6 samples.

Results

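The nuclear genes of the mitochondrial respiratory chain were followed in mouse primary visual cortex (V1) after monocular deprivation. The set was taken by gene symbol from the gene count table: protein-coding genes of the Nduf, Uqcr, Cox4 to Cox8 and Atp5 families, the succinate dehydrogenase genes Sdha to Sdhd, and Cycs, none on the mitochondrial chromosome. Of the 52636 genes in the table, 94 matched these symbols, and 87 had the required mean of at least 1 CPM over the 6 libraries. CPM are read counts scaled to the library size, here with TMM factors between libraries, except that the minimum and the levels of gene copies use CPM without these factors. By symbol, the 87 comprised 37 subunits of complex I, 4 of complex II, 8 of complex III and 12 of complex IV. The others were 17 genes of ATP synthase, cytochrome c and 8 Ndufaf genes. The Ndufaf genes share the symbol of complex I but encode assembly factors, so they were also counted apart from the 79 others. The 7 genes under the minimum were Ndufa4l2 (0.918 CPM), Cox4i2 (0.853), Cox7a1 (0.782), Cox6b2 (0.427), Cox7b2 (0.186), Cox8b (0.104) and Cox8c, which had no read. The member nearest to the minimum was Cox6a2, at a mean of 1.171 CPM without TMM factors, and the 3 excluded genes nearest to it had means of 0.782 to 0.918 CPM.

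The libraries came from 3 wild-type C57BL/6J mice aged 28 days whose right eye had been closed with sutures for 3 days. Left V1 is contralateral to the closed eye and right V1 ipsilateral, so each mouse gave 1 contralateral and 1 ipsilateral library of total RNA. No mouse without a closed eye is among these samples, so the comparison is between the hemispheres of deprived mice. Gene reads numbered 17849253 to 32213500 a library, and the members took 0.455%, 0.3739% and 0.3985% of them in contralateral libraries 1 to 3, against 0.489%, 0.4311% and 0.4409% in ipsilateral libraries 1 to 3. As a check of the labels, 8 of 8 activity-regulated genes such as Fos and Egr2 were lower contralaterally (adjusted p at most 1.71e-04, edgeR's quasi-likelihood test).

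Complex I oxidises NADH and complex II succinate, and both pass electrons through ubiquinone to complex III, which hands them to the small carrier cytochrome c. Complex IV, cytochrome c oxidase, gives them to oxygen, and ATP synthase makes ATP with the proton gradient that complexes I, III and IV build. Subunits of these complexes come from both the nuclear and the mitochondrial genome, except those of complex II, which are all nuclear, and in the monkey visual cortex histochemical staining for cytochrome oxidase is known to weaken in the columns of a silenced eye.

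Most members had slightly less RNA in contralateral than in ipsilateral V1, and none passed the test. The log2 fold change, contralateral over ipsilateral, was below 0 for 75 of the 87 members, where 44.7% of the 20473 genes tested were below 0. Its median was -0.15 over the members, against 0.03 over all genes tested. The summed level of the members was 4561, 3566 and 4007 CPM in contralateral V1 of mice 1 to 3, against 5059, 4493 and 4253 CPM in ipsilateral V1. The contralateral sum was below the ipsilateral sum within each mouse, by 9.85%, 20.6% and 5.79%, although the 2 groups of libraries overlapped. On the same scale the sum of all genes tested changed by -3.13%, -8.54% and 4.24% in mice 1 to 3. The size of the gap in each mouse thus depends on the scaling. By the shares of reads given above, without TMM factors, the members were also lower in each mouse, with the smallest gap in mouse 1. With the mouse as a block, 0 of the 87 members passed an adjusted p under 0.05 in edgeR's quasi-likelihood test, where 0.894% of all genes did. Without the block, 0 passed as well, beside 0.127% of all genes. DESeq2 with the mouse as a term also called 0, beside 203 of the 34788 genes in that fit. It gave no adjusted p for some members, such as Cox6a2 and Ndufs6.

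At an unadjusted p under 0.05, 32 members (36.8%) were lower, where 6.94% of all genes were, and 1 member (1.15%) was higher, where 6.3% of all genes were. The 32 became 4 without the block, and 18, 21 and 20 when contralateral library 1, contralateral library 2 or ipsilateral library 2 was left out. The members lower in each of the 3 mice numbered 48, or 55.2%, where 17.3% of all genes were, and 0 were higher in each mouse, where 19.1% of all genes were. In 10 members, or 11.5%, the 3 contralateral libraries all lay under the 3 ipsilateral ones (6.29% of all genes), and in 0 all lay above (6.7% of all genes). Those 10 were Ndufv2, Uqcrc2, Uqcrh, Cox6b1, Cox7a2, Atp5c1, Atp5j, Atp5o and the assembly factors Ndufaf4 and Ndufaf7. The members are not independent of each other, so these shares describe the set and test nothing. The 95% interval of the log2 fold change stayed within 1.5-fold either way for 77 of the 87 members, reached a larger decrease for 7 and a larger increase for 3. These intervals rest on an error that edgeR moderates over all genes, and they do not measure the spread between the 3 mice. Cox6a1, for example, had within-mouse log2 differences of -0.19, 0.29 and 1.61 and a standard error of 0.21.

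**Figure D1:**
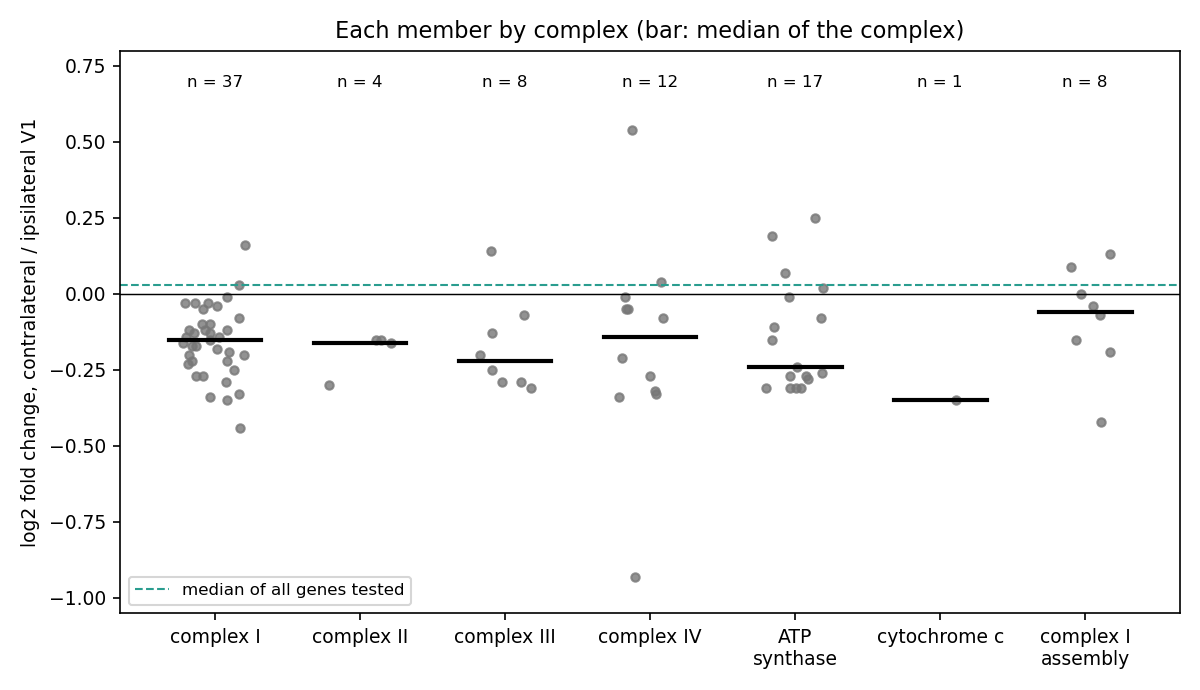
Log2 fold change of each of the 87 members between contralateral and ipsilateral V1 (vertical axis), by complex (horizontal axis), with a bar at each complex's median and a dashed line at the median of all genes tested (0.03). In each of complexes I to IV and ATP synthase the median lies under the dashed line, between -0.14 and -0.24, with Cox6a2 (-0.93) and Cox6a1 (0.54) as the ends of the range.

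**Figure D2:**
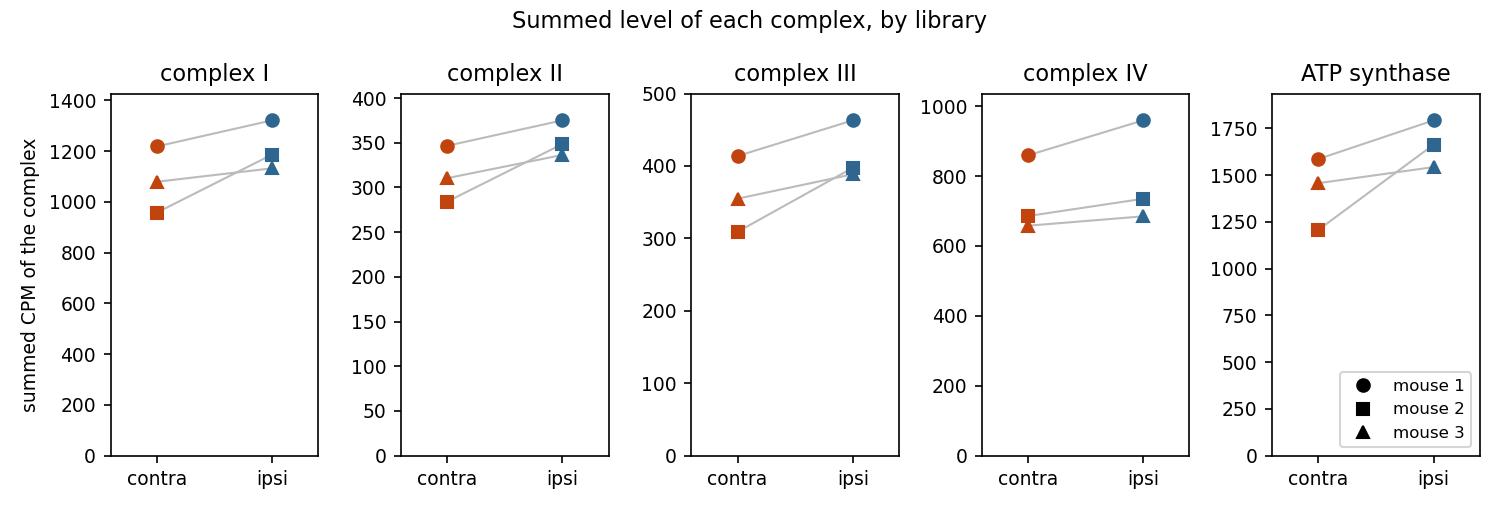
Summed CPM of the members of each complex (vertical axis, from 0) in contralateral and ipsilateral V1, with lines joining the libraries of a mouse. The contralateral sum is under the ipsilateral one in each mouse and complex. The gap of mouse 2 is 27.4% for ATP synthase and 6.72% for complex IV, where the sum of all genes tested changed by -8.54%.

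Promoters were examined because many of these genes are known targets of nuclear respiratory factor 1 (NRF1) and of GABPA, an ETS factor also called nuclear respiratory factor 2. RefSeq promoters (GRCm38.p6, 250 bases before to 50 after each gene's start) were found for 73 of the 87 members, 78 promoters in all. The NRF1 letters GCGCANGCG, on either strand, were in 30.8% of the members' promoters, in 6.25% of all 32851 promoters and in 8.58% of those of protein-coding genes. The ETS letters CCGGAAG were in 23.1% of the members' promoters, 8.86% of all and 11.6% of those of protein-coding genes. The YY1 letters AAGATGGCG were in 10.3%, 1.4% and 1.83% of these sets. The letters GGGCGG of a GC box were in 44.9% of the members' promoters, 35.7% of all and 46.2% of those of protein-coding genes, and those of a TATA box, TATAAA, in 7.69%, 13.6% and 12.6%. Of the 73 members, 23 had an NRF1 match, 18 an ETS match, 6 both and 38 neither. These shares describe letters in a window and show no binding. Stretches upstream of 4 members, outside the gene's bounds in the count table, follow with the NRF1 and ETS matches in capitals, shown because they carry these letters singly, repeated or combined. In these stretches Cycs has 1 NRF1 match, Sdha repeated ones, Cox6a1 overlapping and separate ones, and Sdhd an NRF1 and an ETS match. Inside the gene's bounds, and so not shown, Cox6a1 also has an ETS match 16 bases before the start. Sdha has a further NRF1 match there, 10 bases before the start.
Sdha (chr13:74350281-74350350, minus strand): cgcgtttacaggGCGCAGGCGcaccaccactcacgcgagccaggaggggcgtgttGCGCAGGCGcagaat
Cycs (chr6:50566570-50566679, minus strand): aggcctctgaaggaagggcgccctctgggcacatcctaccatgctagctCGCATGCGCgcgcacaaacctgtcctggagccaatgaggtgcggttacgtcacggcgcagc
Sdhd (chr9:50603850-50603959, minus strand): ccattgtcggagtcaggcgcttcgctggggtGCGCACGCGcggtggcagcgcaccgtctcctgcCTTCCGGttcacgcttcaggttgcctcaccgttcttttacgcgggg
Cox6a1 (chr5:115348982-115349138, minus strand): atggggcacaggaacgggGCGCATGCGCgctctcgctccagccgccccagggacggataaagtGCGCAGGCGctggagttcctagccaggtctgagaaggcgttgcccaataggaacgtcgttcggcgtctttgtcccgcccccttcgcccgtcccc
The members with an NRF1 match had a median log2 fold change of -0.16, and so did the 50 without one. Those with an ETS match had a median of -0.07, against -0.19 for the 55 without one, a difference given here with no test.

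Complex I, the NADH dehydrogenase, had 35 of its 37 subunits below 0, with a median log2 fold change of -0.15, which was -0.08 when either library of mouse 2 was left out. Its summed level was 1218, 957.5 and 1079 CPM in contralateral V1 of mice 1 to 3 and 1321, 1186 and 1132 CPM in ipsilateral V1. The 7 core subunits, which carry out electron transfer, were all below 0 (median -0.20), and 28 of the 30 accessory subunits were (median -0.15). Ndufs1, which holds iron-sulfur clusters, stood at 95.4, 90.53 and 108.6 CPM in contralateral and 103.6, 117.1 and 124.1 CPM in ipsilateral V1, with a log2 fold change of -0.23 (SE 0.09, adjusted p = 0.308). Ndufv1, which binds NADH and the flavin, had 70.11, 52.0 and 52.31 CPM in contralateral and 79.08, 60.28 and 63.08 CPM in ipsilateral V1 (log2 fold change -0.22). In both genes each contralateral library was under its own mouse's ipsilateral library, and the groups overlapped.

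The accessory subunit with the largest negative value was Ndufc2 (ENSMUSG00000030647, chromosome 7, 97400003 to 97407802, GRCm38), a component of the membrane arm. It had 22.01, 12.56 and 14.19 CPM in contralateral libraries 1 to 3 and 24.98, 17.96 and 21.94 CPM in ipsilateral ones, with within-mouse log2 differences of -0.18, -0.51 and -0.62. Its log2 fold change was -0.44 (SE 0.12, adjusted p = 0.121), the contralateral library being lower in each mouse and the groups overlapping because mouse 1 was higher in both hemispheres. Without ipsilateral library 1, which takes mouse 1 out of the paired comparison, it passed (-0.61, adjusted p = 0.0479, edgeR's quasi-likelihood test). Ndufa8, another accessory subunit, followed with -0.35 (SE 0.11, adjusted p = 0.179). On the positive side were Ndufb7, at 0.16 (SE 0.15), and Ndufab1, the mitochondrial acyl carrier protein, at 0.03 (SE 0.11). Ndufb7 had 10.11 CPM in ipsilateral library 3 and 16.19 to 19.38 CPM in the others, and without mouse 3 its value was -0.09. Ndufa4, first described in complex I and now counted with complex IV, had -0.12 (SE 0.10). Levels per kilobase use the gene length of the count table, which pools the exons of a gene and is not the length of 1 transcript. By this measure the mean level of complex I was highest for Ndufb9 (93.74 CPM per kb). It was lowest for Ndufb2 (2.791), whose gene length there is 5628 bases.

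Among the 8 assembly factors, which build complex I without staying in it, 5 were below 0 and the median log2 fold change was -0.06. This median moved to -0.17 without contralateral library 1, to -0.20 without ipsilateral library 1, to -0.02 without either library of mouse 2, and to -0.03 and -0.04 without contralateral or ipsilateral library 3. Ndufaf4 had the smallest adjusted p of all 87 members, and it was singled out after its values were seen. It stood at 23.65, 20.36 and 25.49 CPM in contralateral and 26.58, 31.51 and 35.12 CPM in ipsilateral V1. All 3 contralateral libraries lay under all 3 ipsilateral ones. The log2 fold change was -0.42 (SE 0.11, adjusted p = 0.102, edgeR's quasi-likelihood test), and it passed without mouse 1 (-0.58, adjusted p = 0.0214) and with no filter on low counts (-0.43, adjusted p = 0.0361). In the list of assembly factors of all complexes outside the set, 23 of 36 were below 0 (median -0.07) and 0 passed.

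All 4 subunits of complex II, succinate dehydrogenase, were lower in contralateral V1 within each of the 3 mice, and the groups overlapped for each. Sdha, the flavoprotein that oxidises succinate, had 221.5, 194.7 and 208.4 CPM in contralateral and 238.9, 233.9 and 220.7 CPM in ipsilateral V1 (log2 fold change -0.15, SE 0.10). Sdhb, the iron-sulfur subunit, had 52.72, 36.71 and 48.02 CPM in contralateral and 58.04, 52.35 and 56.86 CPM in ipsilateral V1. Its log2 fold change was -0.30 (SE 0.10, adjusted p = 0.201), the largest negative value of the complex. The membrane anchors Sdhc and Sdhd had log2 fold changes of -0.15 (SE 0.10) and -0.16 (SE 0.11). By mean level per kilobase the order was Sdha (53.24 CPM per kb), Sdhb (22.68), Sdhd (21.09) and Sdhc (11.42).

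In complex III, which passes electrons from ubiquinol to cytochrome c, 7 of 8 subunits were below 0, with a median log2 fold change of -0.22, which was -0.13 without either library of mouse 2. Uqcrfs1, the Rieske iron-sulfur protein, had 55.16, 34.9 and 44.38 CPM in contralateral and 55.99, 52.12 and 56.41 CPM in ipsilateral V1. Its log2 fold change was -0.31 (SE 0.11, adjusted p = 0.211); nearly all of it came from mice 2 and 3 (-0.58 and -0.35, against -0.02 in mouse 1), and without mouse 1 it passed (-0.50, adjusted p = 0.044). The core proteins Uqcrc1 and Uqcrc2 had log2 fold changes of -0.20 (SE 0.09) and -0.29 (SE 0.11). For Uqcrh, the acidic hinge protein, the libraries did not overlap, at 49.89, 59.59 and 54.34 CPM in contralateral and 64.42, 66.16 and 63.33 CPM in ipsilateral V1 (log2 fold change -0.25, SE 0.09, adjusted p = 0.26). Uqcr10, a small subunit, had -0.29 (SE 0.11). The 1 subunit above 0 was Uqcr11, at 0.14 (SE 0.14), with 10.11 CPM in ipsilateral library 3 and 15.72 to 26.97 CPM in the others, and without mouse 3 it stood at -0.08. Per kilobase Uqcrh (48.2 CPM per kb) and Uqcr10 (43.38) were highest and Uqcrq (12.41) lowest.

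Cytochrome c itself, from Cycs, had 30.71, 31.05 and 46.13 CPM in contralateral and 37.05, 56.98 and 43.76 CPM in ipsilateral V1. The contralateral library was lower in mice 1 and 2 and higher in mouse 3, with log2 differences of -0.27, -0.87 and 0.08. The log2 fold change was -0.35 (SE 0.13, adjusted p = 0.255), and without mouse 3 it was -0.58 (adjusted p = 0.00959). Cycs has 3 near-identical annotated copies elsewhere in the genome with a summed mean of 3.609 CPM, so its count may be split.

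In complex IV, cytochrome c oxidase, 10 of 12 subunits were below 0 (median log2 fold change -0.14), and the values ran from -0.93 to 0.54. The catalytic core of this enzyme is encoded by the mitochondrial genome, and the nuclear subunits surround it. Cox4i1, the largest of the nuclear subunits, had 199.2, 188.8 and 182.1 CPM in contralateral and 230.2, 194.4 and 170.7 CPM in ipsilateral V1 (log2 fold change -0.05, SE 0.10). The mice differed in direction for Cox4i1, with log2 differences of -0.21, -0.04 and 0.09. Cox7a2 had 63.75, 48.9 and 58.62 CPM in contralateral and 71.3, 65.13 and 76.55 CPM in ipsilateral V1, with no overlap (log2 fold change -0.32, SE 0.10, adjusted p = 0.143). Cox6b1, on the side facing cytochrome c, also had no overlap, at 65.84, 73.11 and 77.15 CPM in contralateral and 86.61, 93.28 and 79.95 CPM in ipsilateral V1 (log2 fold change -0.27, SE 0.10). Cox7b (-0.33, SE 0.10, adjusted p = 0.14) and Cox5a (-0.34, SE 0.11) were lower in each mouse, while Cox5b (0.04), Cox7a2l (-0.05), a factor in forming supercomplexes, and Cox8a (-0.01) had values near 0.

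The 2 forms of subunit 6a gave the extremes of the whole set. Cox6a2, the heart and muscle form, which in mouse cortex is known from parvalbumin interneurons, had 1.193, 0.855 and 0.3226 CPM in contralateral and 2.692, 1.618 and 0.4503 CPM in ipsilateral V1. It was lower in each mouse, but the mice lay far apart and the groups overlapped. Its log2 fold change was -0.93 (SE 0.37, adjusted p = 0.279), from library counts as small as 7 reads, and its exon overlaps Itgad on the other strand. Parvalbumin interneuron markers had a median log2 fold change of -0.31, with 7 of 9 below 0 and 0 passing. Of the 9, 5 were lower in each mouse, and 4 were lower without overlap. The 2 above 0, Eya1 (0.31) and Kcns3 (0.19), were higher in each mouse without overlap. The median of the list was -0.38, -0.40 and -0.01 within mice 1 to 3. The summed level of these markers was 466.5, 377.8 and 444.5 CPM in contralateral and 556.2, 464.8 and 441.9 CPM in ipsilateral V1. Of 7 muscle markers 3 were abundant enough to be tested. The summed level of all 7 was 8.757 to 9.405 CPM in contralateral and 7.941 to 9.965 CPM in ipsilateral libraries. The part of either cell type in the Cox6a2 value was not tested.

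Cox6a1, the form found in most tissues (ENSMUSG00000041697, chromosome 5, 115345642 to 115348981, GRCm38), had 40.1, 57.18 and 44.61 CPM in contralateral and 45.62, 46.65 and 14.57 CPM in ipsilateral V1. Ipsilateral library 3 was low and the other 5 lay between 40.1 and 57.18 CPM. The log2 fold change was 0.54 (SE 0.21, adjusted p = 0.255), the largest positive value of the set and the 1 member that was higher at an unadjusted p under 0.05. Without ipsilateral library 3, and so without the pair of mouse 3, it was 0.04 (adjusted p = 0.95, edgeR's quasi-likelihood test). Without mouse 1 it was 0.89 (adjusted p = 1.67e-06, same test), so single mice decide it. With no filter on low counts the value was 0.53 and passed (adjusted p = 0.00137).

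Other tissue forms of complex IV subunits were near the limit of detection. Cox4i2, the lung form, had 0.8944, 1.069 and 0.8757 CPM in contralateral and 0.6482, 0.9706 and 0.655 CPM in ipsilateral V1, far under Cox4i1. Cox7a1 and Cox8b, heart and muscle forms, and Cox6b2, a testis form, had at most 1.197, 0.2765 and 0.6482 CPM in any library. Ndufa4l2, a relative of Ndufa4 induced by hypoxia, had 0.655 to 1.047 CPM. Per kilobase the complex ran down to Cox6a2 (1.748 CPM per kb), the lowest member of the set, with Cox8a (149.1) and Cox4i1 (125.3) at its top.

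ATP synthase had 13 of 17 members below 0 and a median log2 fold change of -0.24, which was -0.15 without either library of mouse 2. Among the 17 is Atp5s (0.07), named Dmac2l in RefSeq and counted here by its symbol only. Its summed level was 1586, 1207 and 1457 CPM in contralateral V1 of mice 1 to 3 and 1793, 1663 and 1543 CPM in ipsilateral V1. The subunits of the catalytic head were close together, with log2 fold changes of -0.27 (SE 0.11) for Atp5a1, the alpha subunit, -0.28 (SE 0.12) for Atp5b, the beta subunit, and -0.31 (SE 0.10, adjusted p = 0.187) for Atp5c1, the gamma subunit. Atp5b, the most abundant member by count, had 498.6, 361.0 and 445.7 CPM in contralateral and 564.8, 515.1 and 490.0 CPM in ipsilateral V1. Atp5c1 had 78.96, 63.97 and 79.41 CPM in contralateral and 90.2, 96.9 and 88.05 CPM in ipsilateral V1, with no overlap. Atp5d, the delta subunit, had 63.21, 38.85 and 38.07 CPM in contralateral and 79.13, 51.15 and 44.37 CPM in ipsilateral V1 (log2 fold change -0.31, SE 0.09, adjusted p = 0.149), lower in each mouse.

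The 3 genes of the membrane ring, which encode the same mature subunit c, did not share a value: Atp5g1 and Atp5g3 had log2 fold changes of -0.31 each (SE 0.10), and Atp5g2 had 0.02 (SE 0.15). Atp5o, in the stalk that holds the head, had 64.7, 49.49 and 60.37 CPM in contralateral and 71.05, 68.33 and 67.91 CPM in ipsilateral V1, without overlap (log2 fold change -0.26, SE 0.10). The highest values were those of the membrane subunits Atp5k (0.25, SE 0.22) and Atp5j2 (0.19, SE 0.19), while Atp5l stood at -0.01 (SE 0.10). Atp5j2 had 24.84, 42.86 and 45.95 CPM in contralateral and 26.18, 58.95 and 20.96 CPM in ipsilateral V1. Its low libraries were both of mouse 1 and ipsilateral library 3, and without mouse 3 its value turned to -0.28. Per kilobase Atp5a1 (131 CPM per kb) and Atp5b (113.1) were highest and Atp5l (4.442) lowest.

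**Figure D3:**
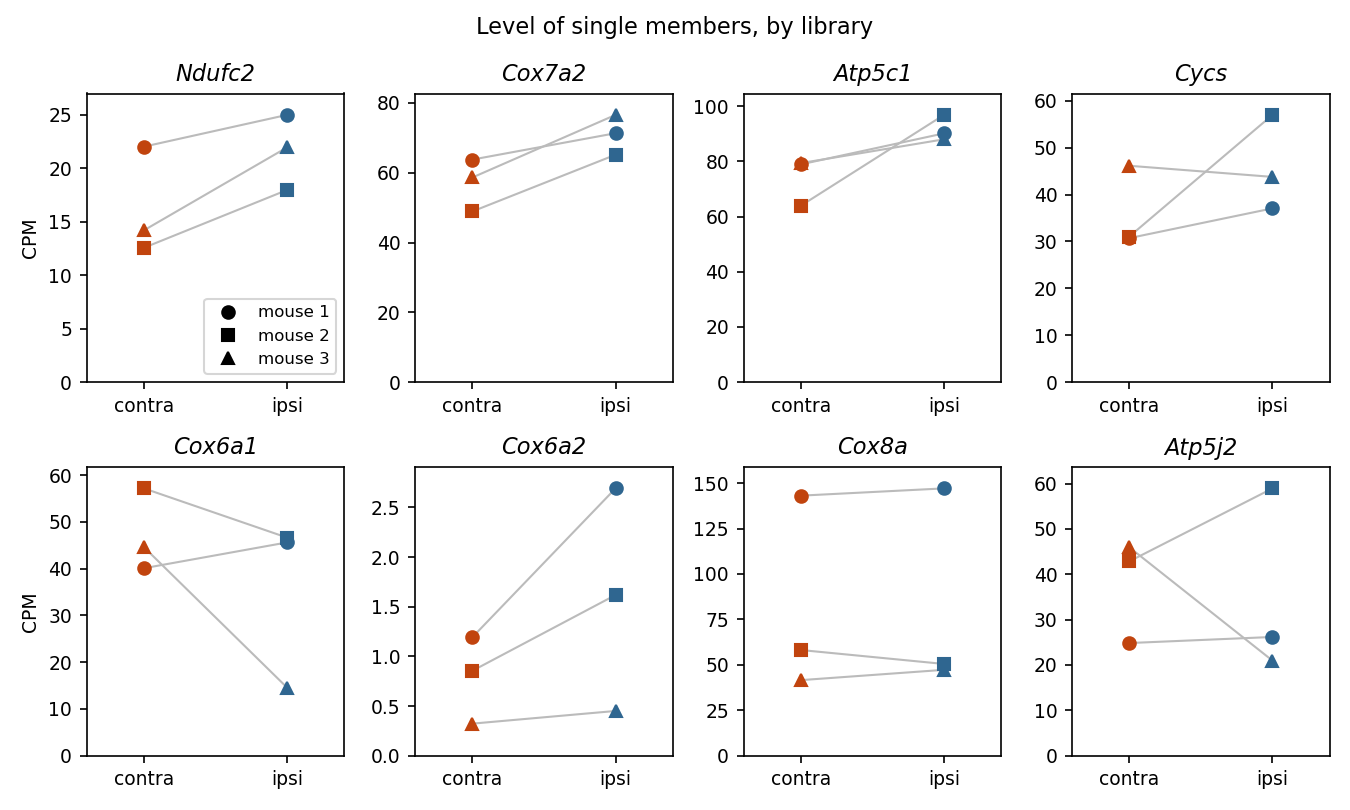
CPM of 8 members (vertical axis, from 0) in contralateral and ipsilateral V1, 1 point a library, with lines joining the libraries of a mouse. Ndufc2, Cox7a2, Atp5c1 and Cox6a2 are lower contralaterally in each mouse, Cycs in 2 of 3, Cox6a1 drops to 14.57 CPM in ipsilateral library 3, and Cox8a separates mouse 1 (143.1 and 147.1 CPM) from the other mice.

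More members passed the test for the mouse than that for the hemisphere. In the test of the mouse term (edgeR, 3 mice with 2 libraries each), 25 of the 87 members, or 28.7%, passed an adjusted p under 0.05, where 6.41% of all genes did. Of these, 24 were lower in mice 2 and 3 than in mouse 1. Cox8a, a small subunit of complex IV, had 143.1 CPM in contralateral and 147.1 CPM in ipsilateral V1 of mouse 1, 58.14 and 50.47 CPM in mouse 2, and 41.57 and 47.24 CPM in mouse 3. Both libraries of mouse 1 lay above the 4 others, and the log2 differences from mouse 1 were -1.42 for mouse 2 and -1.71 for mouse 3 (adjusted p = 6.88e-07). Uqcrq of complex III, at 34.02, 17.11 and 17.01 CPM on average in mice 1 to 3, followed (adjusted p = 4.16e-04), with Cox7c (52.29, 27.76 and 26.92 CPM, adjusted p = 6.91e-04; its 2 near-identical copies sum to 11.05 CPM), Atp5d (71.17, 45.0 and 41.22 CPM) and Atp5e (32.95, 18.75 and 17.75 CPM). Others of the 24 were Uqcr10, Atp5g1, Atp5g2, Atp5g3, Ndufs7 and Ndufa1, and Cyc1, the cytochrome c1 gene that the symbols leave out, had a like order (60.9, 35.32 and 37.96 CPM, adjusted p = 0.0014). The exception was Atp5j2, at 25.51, 50.9 and 33.45 CPM in mice 1 to 3.

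The gene length of the count table was set beside this order. It pools the exons of a gene, reaching 6443 bases for Atp5l and 6883 for Ndufab1, and transcript lengths were not used. The mouse term passed for 7 of the 22 members under 1000 bases and for 18 of the 65 longer ones. The median log2 difference from mouse 1 was -0.34 for mouse 2 and -0.42 for mouse 3 over the shorter members, against -0.23 and -0.16 over the longer ones. Across the members Spearman's rho with length was 0.25 and 0.36, and across all genes -0.06 and -0.04, a description over genes that share libraries. The members are short as a set by this measure, with a median gene length of 1701 bases against 3388 over all genes tested. With 2 libraries a mouse, the animal, its dissection and its library preparation cannot be told apart.

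The members' levels also differed with mt-Rnr1, a ribosomal RNA of mitochondria, which split the libraries into a low and a high set. It was at 14.49 to 35.8 CPM in contralateral 1, ipsilateral 1 and ipsilateral 3, and at 2238 to 5791 CPM in contralateral 2, contralateral 3 and ipsilateral 2. The low set holds both libraries of mouse 1, so the sets are not independent of the mice. For 23 members (26.4%) every library of the high set lay under every one of the low set, where 4.63% of all genes did, and for 4 members (4.6%) every one lay above, where 6.88% of all genes did. Atp5j2 was among the 4, at 42.86 to 58.95 CPM in the high and 20.96 to 26.18 CPM in the low set. Between hemispheres, each set was fitted without the mouse block. The members' median log2 fold change was -0.04 within the low set, with 49 of 87 below 0, and -0.21 within the high set, with 77 below 0. The low set compares contralateral library 1 with ipsilateral libraries 1 and 3, so differences between mice 1 and 3 enter its values. The high set compares contralateral libraries 2 and 3 with ipsilateral library 2, so differences between mice 2 and 3 enter its values in the same way. The pair of mouse 1 alone, inside the low set, had a median of -0.14, and that of mouse 2, inside the high set, -0.27. Within the low set the medians were -0.03 for complex I, -0.02 for complexes II and III, -0.03 for complex IV, 0.01 for ATP synthase and -0.22 for the assembly factors. The medians of all genes in those fits were 0.00 and 0.02, and since each set has only 1 library of 1 hemisphere, that library is taken to vary as the rest do. With mt-Rnr1 as a term in place of the mouse, the members' median was -0.13, those of complexes III and IV were -0.14 and -0.09, that of the assembly factors was -0.02, and 0 passed. The members lower at an unadjusted p under 0.05 numbered 4 with this term, 0 within the low set and 3 within the high set.

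The subunits encoded by the mitochondrial genome did not follow the nuclear ones. All 12 that could be tested had log2 fold changes above 0 (median 0.43, range 0.11 to 0.72), and 0 of 12 passed. The within-mouse medians were -0.16 in mouse 1, 0.20 in mouse 2 and 1.22 in mouse 3, so the value over all mice rests on mouse 3, whose contralateral library is in the high and whose ipsilateral library is in the low set. mt-Cytb, the cytochrome b of complex III, had 2078, 6595 and 5522 CPM in contralateral and 2319, 5531 and 2122 CPM in ipsilateral V1. Summed over all 13 listed mRNAs, tested or not, the level was 4.293, 12.27 and 9.09 times that of the nuclear members in contralateral libraries 1 to 3. In ipsilateral libraries 1 to 3 it was 4.372, 8.463 and 4.626 times. The ratio thus followed the low and high sets, and their part in it was not tested.

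**Figure D4:**
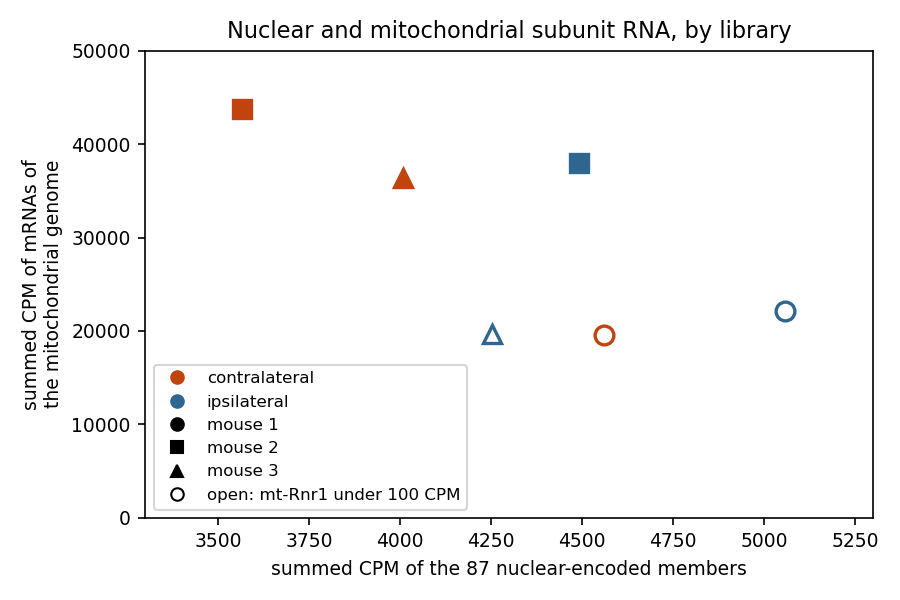
Summed CPM of the mRNAs of the mitochondrial genome (vertical axis) against summed CPM of the 87 nuclear members (horizontal axis, not from 0), 1 point a library, with open symbols for the 3 libraries under 100 CPM of mt-Rnr1. The open symbols lie at 19580 to 22120 CPM on the vertical axis and the filled ones at 36420 to 43740 CPM, in both hemispheres, while within each mouse the contralateral symbol is left of the ipsilateral one.

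Other genes of energy metabolism had negative values of a similar size. All 16 genes of the tricarboxylic acid cycle and pyruvate dehydrogenase were below 0 (median log2 fold change -0.21) and 0 passed, Idh3a, a subunit of isocitrate dehydrogenase, having -0.30 (SE 0.10). Of 20 genes of glycolysis and lactate handling 19 were below 0 (median -0.20), and 1 passed: Ldha, lactate dehydrogenase A, was lower with a log2 fold change of -0.53 (SE 0.12) and an adjusted p of 0.0423. Ldha had 108, 71.66 and 107.8 CPM in contralateral and 139.8, 140 and 128.3 CPM in ipsilateral V1, without overlap, and it did not pass without the mouse block (adjusted p = 0.591). Of 13 genes of mitochondrial transport and creatine kinase 12 were below 0 (median -0.23) and 0 passed, with Vdac3, an outer membrane channel, at -0.42 (SE 0.12, adjusted p = 0.12). The mitochondrial ribosome had 23 of 31 below 0 (median -0.10), antioxidant enzymes of mitochondria 6 of 7 (median -0.09), and 5 subunits that the symbols leave out 4 of 5 (median -0.07), with 0 passing in each.

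The known regulators of respiratory genes were divided, with 8 of 14 below 0, a median of -0.02 and 0 passing. Ppargc1a, the coactivator PGC-1alpha, had 53.32, 61.83 and 75.63 CPM in contralateral and 66.31, 98.42 and 79.21 CPM in ipsilateral V1 (log2 fold change -0.35, SE 0.11, adjusted p = 0.16), lower in each mouse. Gabpb2, a partner of GABPA, had 30.76, 35.97 and 34.29 CPM in contralateral and 22.94, 27.79 and 29.96 CPM in ipsilateral V1, higher without overlap (0.33, SE 0.10, adjusted p = 0.168). Genes of mitochondrial DNA transcription and replication had 5 of 14 below 0 (median 0.08), Tfam, which packages this DNA, standing at -0.23 (SE 0.11).

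Neuron and glial markers also differed between the hemispheres of mouse 2, where the members' median was lowest. In that mouse the median log2 difference was -0.27 for the members, -0.50 for 10 neuron markers, 0.26 for 8 astrocyte markers, 0.43 for 8 microglia markers and 0.32 for 8 endothelial markers. In mouse 1 the neuron median was -0.12 and in mouse 3 it was 0.05, beside -0.14 and -0.10 for the members. Over all mice 7 of 10 neuron markers were below 0 (median -0.21) and 2 passed as lower, Gad1 (-0.56, adjusted p = 0.00558) and Gad2 (-0.48, adjusted p = 0.0301), neither of which passed without the block (adjusted p = 0.278 and 0.452). The summed level of the neuron markers was 10560 to 11530 CPM in contralateral and 10690 to 11910 CPM in ipsilateral libraries. Oligodendrocyte markers had 8 of 8 below 0 (median -0.25), with a median of -0.51 in mouse 3, and a summed level of 3631 to 6129 CPM in contralateral and 5101 to 6296 CPM in ipsilateral libraries. Below 0 were 2 of 8 astrocyte markers (summed level 9367 to 11800 CPM in contralateral and 9805 to 10290 CPM in ipsilateral libraries), 0 of 8 microglia markers (298.9 to 397.6 and 268.8 to 351.0 CPM) and 1 of 8 endothelial markers (240.7 to 320.8 and 237.8 to 250.8 CPM), and no gene of the oligodendrocyte, astrocyte, microglia or endothelial lists passed. Markers of cortical layers had 5 of 8 below 0 (median -0.03), and 2 deep-layer markers passed as lower, Tle4 (-0.41, adjusted p = 0.0393) and Etv1 (-0.51, adjusted p = 0.0456), neither of which passed without the block (adjusted p = 0.525 and 0.586). In bulk tissue fewer cells of a type and less RNA per cell cannot be told apart, and the part of cell composition in the members' values was not tested.

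**Figure D5:**
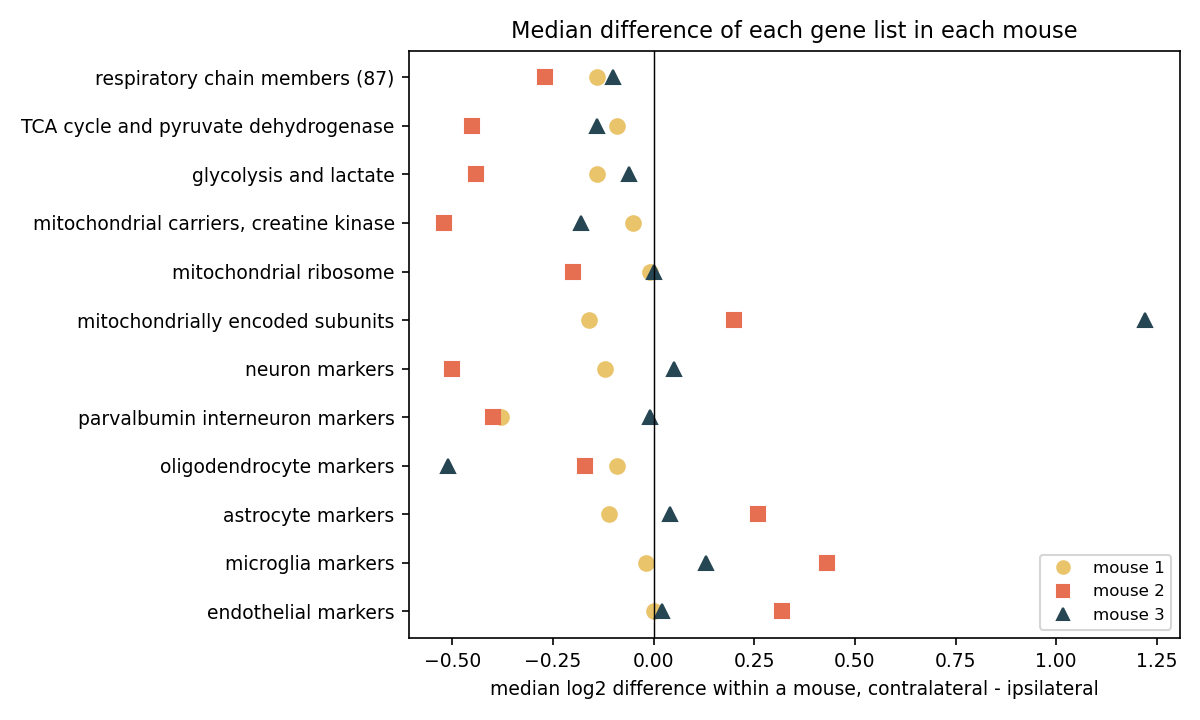
Median log2 difference between contralateral and ipsilateral V1 within each mouse (horizontal axis) for the members and for other gene lists (vertical axis), 1 symbol a mouse. The members lie left of 0 in all 3 mice (-0.14, -0.27 and -0.10), the metabolic lists lie farthest left in mouse 2, and the mitochondrially encoded subunits reach 1.22 in mouse 3.

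None of the 1488 circular RNAs counted in these libraries had a member as its host gene, so 0 circular RNAs could be set beside the members.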

How the data were processed

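The authors deposited a table of raw read counts per Ensembl gene for 6 libraries of total RNA, in the layout of featureCounts per the file headers. As tools and build, the submitters' processing notes list GRCm38, limma, HISAT2, DESeq2 and featureCounts. Neither the annotation release nor the strand setting of the counts is stated in the sources read here, so values are uncertain for the 28 members that share exon sequence with an opposite-strand gene, and for 17 with near-identical annotated copies (at least 97% over 150 bases, blastn 2.17.0). On the same strand, 5 members share exon sequence with another gene, so their values are uncertain whatever the strand setting. They are Atp5g2, Atp5o, Ndufb2, Ndufb8 and Ndufb9. The members and gene lists were chosen with earlier results of these data known. GENCODE M21 gave positions for 52489 of 52636 IDs, and 73 of the 87 members had the bounds of the deposited table.

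Counts were compared with edgeR 4.0.16 (R 4.3.3, quasi-likelihood test, TMM, filterByExpr with minimum count 10 and total 15, 20473 genes, Benjamini-Hochberg adjustment over all of them, threshold 0.05), with the mouse as a block because the labels give both hemispheres of a number the same mouse. All 87 members passed the filter on low counts. As a check of the pairing, the 2 libraries of a mouse deviated from their group means with correlations of 0.431, 0.0775 and 0.172. The highest with another mouse were -0.188, 0.177 and 0.15. In mouse 2 the correlation was lower within the mouse than with another mouse, and in mouse 3 the 2 were close. For these mice the pairing therefore rests on the labels. Within-mouse differences are of log2(CPM + 0.1), and a standard error is the size of the log2 fold change divided by the root of F. Members had a median of 618 reads a library. The standard errors and intervals use a dispersion that edgeR moderates over all genes, so they do not measure the spread between the 3 mice. Only the main fit was tested on simulated counts. These held no differences between mice and larger changes than those of most members. The use of the mouse block and the recovery of small changes were therefore not tested. Named members were those past the threshold, fixed enzymes and tissue forms, and in each complex the largest changes and the highest and lowest level per kilobase; 1 gene that this rule selects is not reported here. The mt-Rnr1 sets were divided at 100 CPM. Alternatives without the block, with other scalings, filters, libraries or DESeq2 1.42.0 are given at the end. A table of circular RNA counts was used only to look for host genes, and the normalized circular RNA values were not used. Figures were drawn with matplotlib 3.10.9 in Python 3.11.15.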

Additional observations from a re-analysis of the deposited data

How the results depend on the processing

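With no replicate block (mouse pairing), 0 members passed, 75 were below 0 and the median was -0.16, but 4 instead of 32 were lower at an unadjusted p under 0.05. With mt-Rnr1 as a term this count was 4. Within the low set, fitted without the mouse block, the median was -0.04 with 49 below 0, and the cause was not tested. With no filter on low counts 2 members passed, where 435 of 34788 genes did. When 1 library or mouse was left out 0 to 4 passed, where 89 to 269 of all genes tested did. In these fits 18 to 27 members were lower at an unadjusted p under 0.05. Without contralateral 1 (18), contralateral 2 (21), ipsilateral 2 (20) or mouse 2 (21) this count moved by over 1.5 times. The share of all genes at an unadjusted p was not counted under the alternatives. Leaving out 1 library also takes its mouse out of the paired comparison, so these fits are not independent of those without that mouse. The scalings RLE, library size and mitochondrial chromosome left out kept 0 past the threshold, with medians of -0.17, -0.12 and -0.17, and left the median of all genes at 0.01 to 0.07.

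Of 684 values of 38 named members under alternatives, 55 values, in 16 members, turned in sign. With library size only these were Atp5l and Cox8a (0.03 each), and with DESeq2 Ndufab1 (-0.01). With the mt-Rnr1 term they were Atp5j2 (-0.17), Atp5k (-0.05), Cox7a2l (0.00), Cox8a (0.22), Ndufab1 (-0.06) and Uqcrq (0.03). Within the low set, fitted without the mouse block, they were Atp5d (0.02), Cox7a2l (0.06), Cox8a (0.55), Ndufa4 (0.14), Sdhc (0.03), Sdhd (0.13), Uqcr10 (0.04) and Uqcrq (0.35), all negative within mouse 1. Within the high set, also fitted without the mouse block, they were Atp5j2 (-0.41), Atp5k (-0.16), Atp5l (0.01), Cox5b (-0.16), Ndufab1 (-0.17), Ndufb7 (-0.20) and Uqcr11 (-0.08). Leaving out 1 library or mouse gave -0.29 to 0.55 for Atp5j2, -0.07 to 0.43 for Atp5k, -0.07 to 0.01 for Atp5l, -0.14 to 0.02 for Cox4i1, -0.13 to 0.13 for Cox5b, -0.11 to 0.03 for Cox7a2l, -0.11 to 0.08 for Cox8a, -0.07 to 0.12 for Ndufab1, -0.10 to 0.35 for Ndufb7 and -0.10 to 0.36 for Uqcr11. None of these values passed the threshold. The alternative for circular RNAs gave no value, as none has a member as host.

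With 3 mice the median SE of a member was 0.11 on the log2 scale, and it was 0.37 for Cox6a2, which had as few as 7 reads and whose mice lay far apart; the parts of depth and of the mice in this error were not tested.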
